A study of Mus musculus with 3 samples.

Results

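The genes described are 6 X-linked mouse genes known to stay expressed from the inactive X chromosome, which makes them escape genes: Ddx3x, Kdm6a, Eif2s3x, Pbdc1, Kdm5c and Mid1. They were chosen by name, and the values are those of every 25 kb row of the X that overlaps their mm9 gene spans. That gave 27 rows, of which 26 had a value, out of 6667 rows on the X (3987 with a value) and 106205 in the genome. The measurement was RNA antisense purification (RAP), in which biotinylated probes against the Xist RNA pull down crosslinked chromatin and the DNA recovered is sequenced. The cells were female mouse embryonic stem cells of strain 129SvJae, labelled ESC (EpiLC), grown in 2i and LIF and then differentiated in epiblast-like cell (EpiLC) medium. One group was harvested after 2 days and the other after 4 days, and each is 1 Xist pulldown library. A library of input DNA from day 2 is also labelled and was not analysed here on its own. No genetic modification of either group is named in the labels, and the recovered DNA cannot be divided here between the active and the inactive X. A DNA pulldown holds no expression values, so neither the cell type nor the escape of these genes was measured in these cells.

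Xist RNA is made from the future inactive X, spreads over that chromosome in cis and recruits factors that silence its genes and remove marks of active transcription. A minority of X-linked genes escape this silencing and are transcribed from both X chromosomes of female cells. Several of them, among them Ddx3x, Kdm6a, Eif2s3x and Kdm5c, have a counterpart on the Y chromosome, and their dosage differs between the sexes where that counterpart is not equivalent. In differentiated female cells, escape genes have been described as lying in places with less Xist than their surroundings. The comparison here asked whether that holds for these genes during the first days after Xist is switched on.

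The value of each row is a ratio of enrichment over a window of 100 kb, deposited with 2 decimals and taken to be pulldown over input; which input served for day 4 is not known here. A gene shorter than the window is therefore measured together with its neighbours, and the 4 rows whose windows share a stretch of DNA are not independent. The flank of a gene is the set of rows between 0.2 and 1 Mb from its span on either side, and the level of a gene is the median of its rows. With 1 library per day, no p-value can be given for any difference. The read depth behind a row is unknown, so a spread given here is over neighbouring rows and not over replicates.

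Of the 6 genes, 5 were above the 99th percentile of autosomal rows on day 2, all but Kdm6a, and all 6 were on day 4. Nearly all X rows were above it as well. Of 3987 X rows with a value, 27 were below that percentile on day 2 and 0 on day 4. Kdm6a, which encodes a histone H3 lysine 27 demethylase, had the lowest level on both days, 1.16 on day 2 and 2.23 on day 4. Eif2s3x, which encodes a subunit of the translation initiation factor that delivers the initiator tRNA, had the highest, 38.19 and 28.48. The highest gene thus stood 32.9 times above the lowest on day 2 and 12.8 times on day 4. The X median was 10.87 on day 2 and 16.58 on day 4, and the autosomal median 0.38 and 0.29.

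The order of the genes was nearly the same on both days. On day 2 it was Eif2s3x (38.19), Kdm5c (20.19), Ddx3x (17.04), Pbdc1 (15.18), Mid1 (11.67) and Kdm6a (1.16). No pair of neighbours in that order had overlapping ranges of rows. Neighbouring rows share most of their windows, so such a range does not measure error. Over all rows whose windows hold the whole gene, Ddx3x (15.68 to 20.78) did overlap Kdm5c (17.82 to 22.56) on day 2. On day 4 it was Eif2s3x (28.48), Kdm5c (19.38), Pbdc1 (19.04), Ddx3x (14.03), Mid1 (13.40) and Kdm6a (2.23). There the rows of Kdm5c overlapped those of Pbdc1, and the rows of Ddx3x those of Mid1. On day 2, 5 of the 6 genes were above the X median, and on day 4 the number was 3. The median percentile of the genes among X rows was 69.4 on day 2 and 50.5 on day 4.

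**Figure D1:**
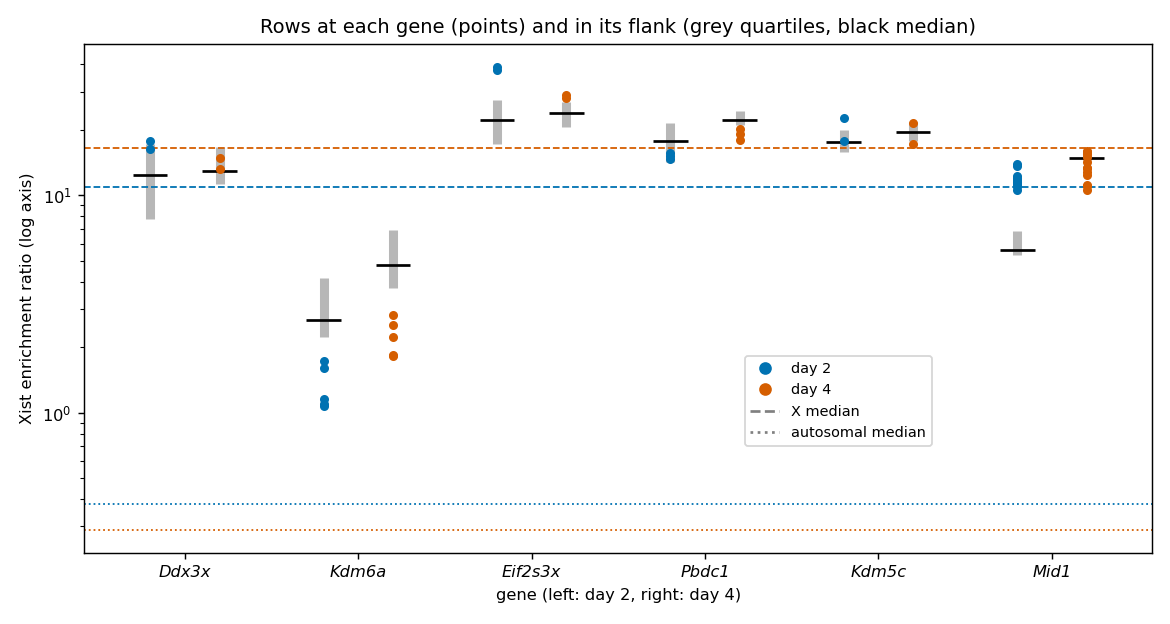
Xist enrichment ratio (log axis) of each 25 kb row at the 6 genes (points, day 2 left and day 4 right), with the quartiles (grey bars) and median (black line) of the flank of each gene. Dashed lines are the X medians of 10.87 and 16.58 and dotted lines the autosomal medians of 0.38 and 0.29. Kdm6a is the only gene whose rows all lie under the quartiles of its flank and under the X median on both days.

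Distance from the strongest site of Xist recovery did not order the genes. That site, the highest X row of day 2, is at 100662501 to 100687500. Pbdc1 lay 1.62 Mb from it and ranked in the middle of the list on day 2, while Eif2s3x, at 9.23 Mb, had the highest level. Kdm5c at 48.0 Mb, Mid1 at 65.6 Mb and Ddx3x at 87.8 Mb were all far above Kdm6a at 82.9 Mb. Ddx3x and Kdm6a thus lay at like distances, with day 2 levels of 17.04 and 1.16.

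Whether the genes were lower than the chromatin around them depended on the day and on how near the flank was taken. On day 2, 2 of 6 genes were below the median of their flank, where 53.1% of single X rows were below theirs. On day 4 the count was 4 of 6, against 53.7% of X rows. Runs of as many touching X rows as each gene has were below their flanks in 54.9% to 58.8% of cases on day 2 and in 55.1% to 59.9% on day 4. With a nearer flank of 0.1 to 0.5 Mb, 1 of 6 genes was below on day 2, against 53.9% of X rows, and 6 of 6 on day 4, against 52.9%. Of those 6 on day 4, Kdm6a was at 0.615 of that flank and the other 5 between 0.850 and 0.971. With the flank at 0.2 to 1 Mb, the median gene was at 1.26 times its flank on day 2 and at 0.948 times on day 4, where the median X row was at 0.970 and 0.978 times. One gene, Kdm6a, was over 1.5-fold below its flank on both days; such rows made up 17.7% of the X on day 2 and 10.1% on day 4. Eif2s3x and Mid1 were over 1.5-fold above theirs on day 2, as were 13.7% of X rows, and no gene was on day 4, when 4.25% of X rows were. Both of these day 2 calls ended with the flank at 0.1 to 0.5 Mb, where Eif2s3x was at 1.31 times and Mid1 at 1.32 times its flank; Kdm6a, at 0.531 and 0.615, stayed past the threshold. Against runs of equal length, the ratio of Kdm6a stood at the 7.13 percentile on day 2 and the 3.26 percentile on day 4, and that of Mid1 at the 96.2 and 44.4 percentile.

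**Figure D2:**
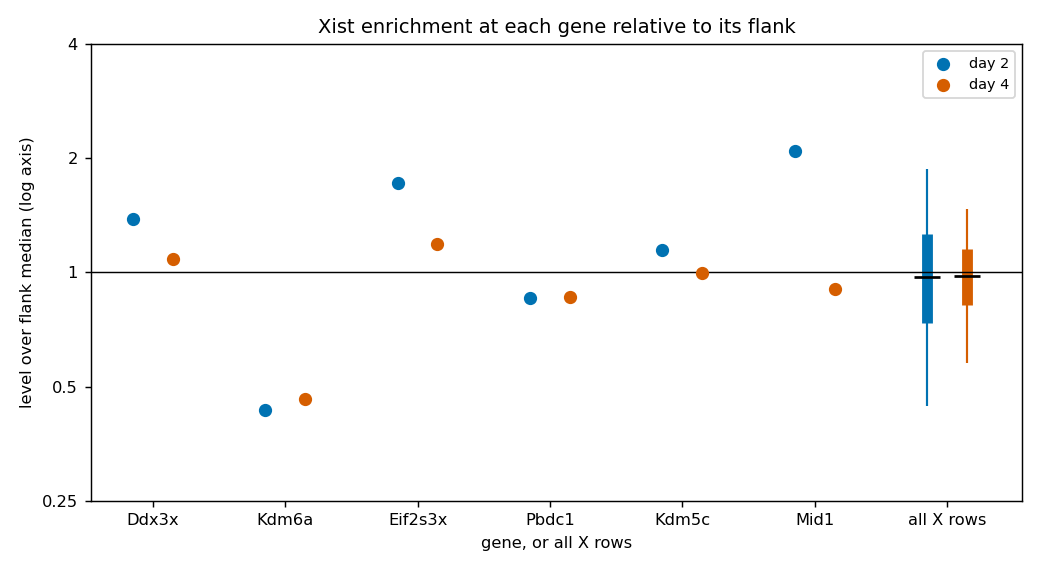
Level of each gene divided by the median of its flank (log axis, line at 1), for day 2 (blue) and day 4 (orange). At the right, the same ratio at all X rows is drawn as median (black), quartiles (thick bar) and 5th to 95th percentile (thin line). Kdm6a lies at 0.434 and 0.465, Eif2s3x at 1.72 and 1.19 and Mid1 at 2.09 and 0.903.

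The sequences just before the start sites of the lowest and the highest gene are shown because both lie inside measured windows of opposite level. They were taken from RefSeq on the GRCm38.p6 build, whose coordinates differ from the mm9 positions of the rows, and end 1 base before the start site. CpG dinucleotides are in capitals. The region for Kdm6a is chrX:18162325-18162574 on the plus strand and that for Eif2s3x is chrX:94212652-94212901 on the minus strand, each 250 bases, written 5′ to 3′.
Kdm6a: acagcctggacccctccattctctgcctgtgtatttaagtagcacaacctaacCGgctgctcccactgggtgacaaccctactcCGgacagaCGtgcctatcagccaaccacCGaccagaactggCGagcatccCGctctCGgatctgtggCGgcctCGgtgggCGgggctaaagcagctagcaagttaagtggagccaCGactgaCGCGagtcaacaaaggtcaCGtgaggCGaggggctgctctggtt
Eif2s3x: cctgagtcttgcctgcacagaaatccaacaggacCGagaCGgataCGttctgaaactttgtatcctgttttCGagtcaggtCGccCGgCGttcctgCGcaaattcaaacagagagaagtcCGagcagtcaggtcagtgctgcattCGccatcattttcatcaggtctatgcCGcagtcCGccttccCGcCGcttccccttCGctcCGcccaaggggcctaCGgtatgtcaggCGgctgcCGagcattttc
Both were rich in CpG, with 15 dinucleotides at Kdm6a and 19 at Eif2s3x; the median of 1223 X-linked start regions was 5 and their upper quartile 12. Ddx3x had 22, Pbdc1 14 and Kdm5c 10. Mid1 has 3 start sites in the table, with 0, 5 and 9. The lowest and the highest gene for Xist recovery thus both had CpG-rich starts. All 6 genes matched the table.

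The starts were also searched for AANATGG on both strands, the core of the motif of YY1, a zinc finger protein described as tethering Xist RNA to chromatin. The search covered 250 bases before and 50 after each start site. Eif2s3x and Kdm5c held 1 match each, on the strand of the gene, beginning 16 and 28 bases into the transcript; the other 4 genes held none. The motif was held by 16.1% of all 32851 start regions, and of those on the X 19.5%. The 30 bases around each match are shown with the motif in capitals, from GRCm38.p6 chrX:94212618-94212647 on the minus strand and chrX:152233243-152233272 on the plus strand.
Eif2s3x: tctctccgagcAAGATGGctgggggtgagg
Kdm5c: gctgacaaaccAAGATGGcggtggcagcgg
These are matches of letters in a short region and not measured binding sites, and windows of 100 kb cannot place recovery at them.

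Kdm6a is the first of the histone demethylases on the list; it removes methyl groups from lysine 27 of histone H3, the mark that Polycomb proteins lay down on the inactive X. Its span, 17739001 to 17857000, is 118 kb long, and its 5 rows from left to right were at 1.73, 1.60, 1.1, 1.07 and 1.16 on day 2. On day 4 they were at 2.81, 2.53, 1.85, 1.83 and 2.23. The lowest row of the gene was the same on both days, 17812501 to 17837500, in the distal part of the span. On day 2 that row was the lowest of all 3987 X rows, and the gene held the lowest, the third and the fourth lowest.

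The chromatin around Kdm6a was itself among the lowest of the X, and the gene held the lowest row of that region on both days. Some rows to its left were near the level of the gene. The row centred at -223 kb from the middle of the span was at 1.22 on day 2 and 2.42 on day 4. That is below the leftmost row of the gene, at 1.73 and 2.81. The day 2 median of its flank was 2.67 (quartiles 2.23 to 4.16), and that of day 4 was 4.795 (3.76 to 6.93), against gene levels of 1.16 and 2.23. None of the 44 flank rows with a value was below the level of the gene on either day. Rows nearer than 0.2 Mb are not among them. The ratio of gene to flank was 0.434 on day 2 and 0.465 on day 4. A setting added after the values were seen took nearer rows, 0.1 to 0.2 Mb away. With it the log2 ratio was -0.63 on both days, where the wider flank gave -1.2 and -1.1. These nearer rows had unlike sides, 1.22 to 1.38 on the left and 2.22 to 2.56 on the right on day 2. On day 4 the sides were at 2.42 to 2.6 and 4.31 to 5.13. The gene was thus slightly below the rows on its left and well below those on its right. Of 62 flank rows, 18 carried the authors' flag and have no value.

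On day 2 most of Kdm6a lay within the range of autosomal rows. Its level was 3.05 times the autosomal median on day 2 and 7.69 times on day 4. Of its 5 rows, 2 were above the 99th percentile of autosomal rows on day 2 and 5 on day 4. On day 2, 27 X rows were below that percentile, 1.58; 3 of them overlapped Kdm6a and 15 lay within 0.5 Mb of it, where 37 rows had a value. On day 4 no X row was below that percentile, which was then 1.04. The 10 lowest X rows of day 4 all lay between 114787501 and 115137500, with values from 1.39 to 1.49, and the lowest row of Kdm6a then ranked 48 from the bottom.

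Kdm5c is the other histone demethylase, acting on methylated lysine 4 of histone H3, a mark of active genes. Its span is 148667001 to 148709000, 42 kb, and its 2 rows were at 22.56 and 17.82 on day 2 and at 21.54 and 17.22 on day 4. The level, 20.19 on day 2 and 19.38 on day 4, was close to the flank medians of 17.61 and 19.47. Its ratios to the flank were 1.15 and 0.995, and beside it lay a steep local dip. Coming from the left, the rows went from 30.19 on day 2 at 63 kb before the centre of the span down to 14.84 at 37 kb after it, and up again to 25.87 at 137 kb after it. On day 4 the same 3 rows were at 27.47, 14.46 and 25.76. The lowest row, 148712501 to 148737500, begins 3.5 kb beyond the span, and its window of 100 kb holds 34 kb of the gene. Against rows 0.1 to 0.2 Mb away, the log2 ratio of the gene was -0.23 on day 2 and -0.36 on day 4, while the wider flank gave 0.20 and -0.0067. In GRCm38.p6 its neighbours among protein-coding genes are Iqsec2 and Tspyl2, and rows here cannot be divided between Kdm5c and Tspyl2.

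**Figure D3:**
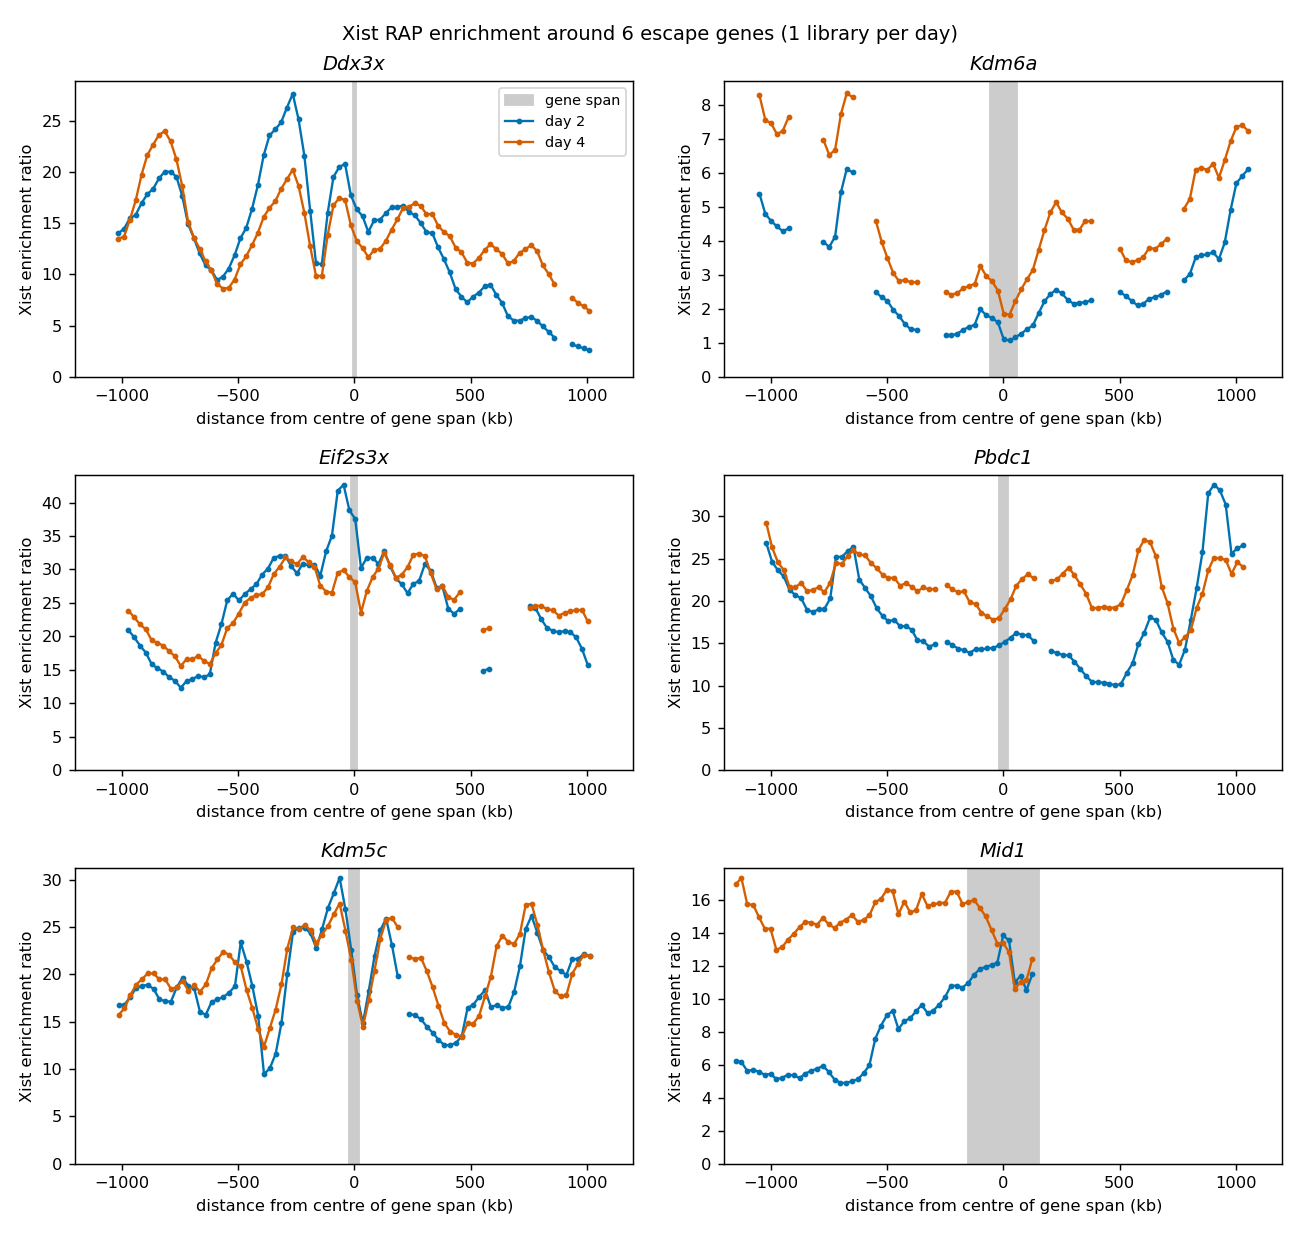
Xist enrichment ratio of each 25 kb row by distance in kb from the centre of the gene span (grey), for day 2 (blue) and day 4 (orange), out to 1 Mb from the span; gaps are rows without a value. The ratio axis differs between panels. Kdm6a holds the lowest row of its region, with some rows to its left nearly as low on day 2. Kdm5c sits at the left wall of a dip to 14.84 and 14.46, and Eif2s3x beside the highest rows of its region on day 2.

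To compare such dips, each row was divided by the mean of the rows 100 kb to its left and right, whose windows do not overlap its own; this measure was added after the values were seen. The measure needs a value in the row and in both comparison rows, which 2875 X rows had. Of the 38 such rows whose windows overlap a listed gene, 7 (18.4%) were under 0.75 on day 2, against 4% of X rows. On day 4 it was 6 of 38 (15.8%), against 2.23% of X rows. All of these rows belonged to Kdm6a (4 on day 2 and 3 on day 4) and Kdm5c (3 on each day), so the excess rests on 2 of the 6 genes and on rows that overlap each other. The deepest row at Kdm5c was at 0.529 on day 2 and 0.543 on day 4, a depth reached by 0.313% and 0.174% of X rows. The deepest at Kdm6a was at 0.644 and 0.600. At the other genes the lowest were 0.812 and 0.759 at Eif2s3x, 0.860 and 0.819 at Ddx3x, 0.959 and 0.850 at Pbdc1 and 0.959 and 0.936 at Mid1.

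Dips of the same depth also occurred near the genes but off them. Within 1 Mb of Ddx3x, the row centred at -164.5 kb from the middle of its span was at 0.462 of the rows around it on day 2 and 0.523 on day 4. Within 1 Mb of Kdm5c, a row at -388 kb was at 0.436 and 0.568, with values of 9.46 and 12.37. A dip on this scale is therefore not particular to the listed genes.

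Ddx3x encodes an RNA helicase that acts in translation and has a counterpart on the Y. Its span, 12858001 to 12871000, is the shortest of the list at 13 kb. Its 2 rows were at 17.72 and 16.36 on day 2 and at 14.79 and 13.27 on day 4. Both were thus higher on day 2 in the deposited ratios. Relative to the autosomal medians both were slightly higher on day 4, with folds of 1.09 and 1.06. The ratio to the flank was 1.38 on day 2 and 1.09 on day 4. The flank was uneven: on day 2 its left side had a median of 16.95 and its right side 7.82, so the gene was level with the left and above all 29 rows of the right. On day 4 the sides were at 15.59 and 12.30. The lowest row within 0.2 Mb was not at the gene but 120.5 kb to its left, at 10.98 on day 2 and 9.85 on day 4. In GRCm38.p6 the neighbour on that side is Usp9x; no position of Usp9x in mm9 was used.

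Eif2s3x lies at 91434001 to 91458000, a span of 24 kb in one of the most enriched regions of the X. Its 2 rows were at 38.85 and 37.53 on day 2 and at 28.86 and 28.10 on day 4. On day 2 all 52 flank rows were below its level, and 42 of them on day 4. The ratio to the flank was 1.72 and 1.19. The level stood at the 99.2 percentile of X rows on day 2 and at the 93.5 percentile on day 4. The row that begins 4.5 kb to the right of the span, whose window holds the whole gene, was at 30.24 on day 2 and 23.54 on day 4. On day 4 that row was the lowest within 0.2 Mb of the gene. Against rows 0.1 to 0.2 Mb away, the log2 ratio of Eif2s3x was 0.32 on day 2 and -0.10 on day 4, so on day 4 the sign depended on how near the flank was taken.

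Pbdc1, named for a polysaccharide biosynthesis domain in its product, is the member nearest to the strongest site. Its span is 102275001 to 102313000, 38 kb. The 3 rows were at 14.76, 15.18 and 15.66 on day 2 and at 17.96, 19.04 and 20.20 on day 4. In the deposited ratios all of them were higher on day 4, and the ranges of the days do not overlap. Neighbouring rows share most of their windows, so these ranges do not measure error. The fold of the gene was 1.64 relative to the autosomal medians and 0.82 relative to the X medians, so the direction depended on the scaling. The ratio to the flank at 0.2 to 1 Mb was nearly the same on both days, 0.854 and 0.862. This depended on the flank. With rows 0.1 to 0.5 Mb away the ratio was 1.07 on day 2 and 0.888 on day 4. Rows 0.1 to 0.2 Mb away gave 1.07 and 0.903. On day 4 only 4 of 61 flank rows were below the level of the gene, and on day 2 the number was 19. The shallow low point of day 4, at 17.81, was a row that ended 12.5 kb to the left of the span. On day 2 that row was at 14.45, which was 0.959 of the rows around it.

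Mid1, which encodes a ubiquitin ligase that binds microtubules, is the longest member at 305 kb, from 166123001 to 166428000, near the distal end of the X. In the reference strain its distal part crosses into the pseudoautosomal region, which the X shares with the Y. Of its 13 rows 12 had a value, between 10.55 and 13.87 (median 11.67) on day 2 and between 10.62 and 16.04 (median 13.40) on day 4. None of the 12 rows from the last row of the gene to the chromosome end had a value, so the flank is the left side alone. On day 2 the gene was above all 31 flank rows, at 2.09 times their median of 5.59. On day 4 the flank was at 14.84 and the gene at 0.903 times that. The day 2 value depended on the flank: it was 1.32 times with rows 0.1 to 0.5 Mb away and 1.25 times with rows 0.1 to 0.2 Mb away, and both gave 0.850 on day 4. The day 4 value also depended on the distal rows. With rows within 100 kb of a flagged row left out, its log2 ratio was -0.022, where all rows with a value gave -0.15.

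The parts of Mid1 differed in how the days compared. Its first 6 rows had a median of 11.90 on day 2 and 15.29 on day 4, a fold of 1.68 relative to the autosomal medians. The last 6 rows with a value had 11.46 and 11.79, a fold of 1.27. On day 4 the first 6 lay between 13.38 and 16.04 and the last 6 between 10.62 and 13.42, so these ranges barely overlapped. On day 2, 10.99 to 12.22 lay inside 10.55 to 13.87. Neighbouring rows share most of their windows, so these ranges do not measure error. The most distal of the last 6 rows lie within 100 kb of flagged rows, and whether that lowers them was not tested.

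Between the days, 5 of the 6 genes had a smaller fold than the median X row, Kdm6a being the exception. With each library divided by its autosomal median, 5 of 6 genes were higher on day 4, where 97.9% of X rows were. In the deposited ratios 3 of 6 were higher, against 82.7% of X rows, and relative to the X median only Kdm6a was. The share of X rows that were higher relative to the X median was not computed. That last count therefore cannot be read as a trait of these genes. The median fold of the genes was 1.38 relative to the autosomes, and the median X row was at 1.83 (quartiles 1.42 and 2.36). Kdm6a was higher and Eif2s3x lower on day 4 under these 3 scalings. For the other 4 genes the direction depended on the scaling: Ddx3x and Kdm5c were higher only relative to the autosomes, and Pbdc1 and Mid1 were lower relative to the X median.

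Kdm6a had the largest fold of the 6, 2.52 relative to the autosomes, which is that of the row at its median level on both days; its other 4 rows had folds of 2.07 to 2.24. Pbdc1 followed with 1.64, Mid1 with 1.5, Kdm5c with 1.26, Ddx3x with 1.08 and Eif2s3x with 0.977. The folds of Eif2s3x and Ddx3x were among the lowest of the X, at the 1.76 and 4.04 percentile of all X rows. The flanks had folds of 1.5 at Ddx3x, 2.16 at Kdm6a, 1.46 at Eif2s3x, 1.66 at Pbdc1, 1.41 at Kdm5c and 3.41 at Mid1. The day 4 minus day 2 difference in the log2 ratio of gene to flank had a median of -0.27 over the list. Mid1 had the largest difference, -1.21. The median X row was at 0.970 times its flank on day 2 and 0.978 times on day 4. At Ddx3x and Pbdc1 the sign depended on the flank. Their differences were -0.34 and 0.013, and with rows 0.1 to 0.2 Mb away they were 0.027 and -0.25. With the flank at 0.1 to 0.5 Mb the difference for Mid1 was -0.64, and at 0.1 to 0.2 Mb -0.56.

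**Figure D4:**
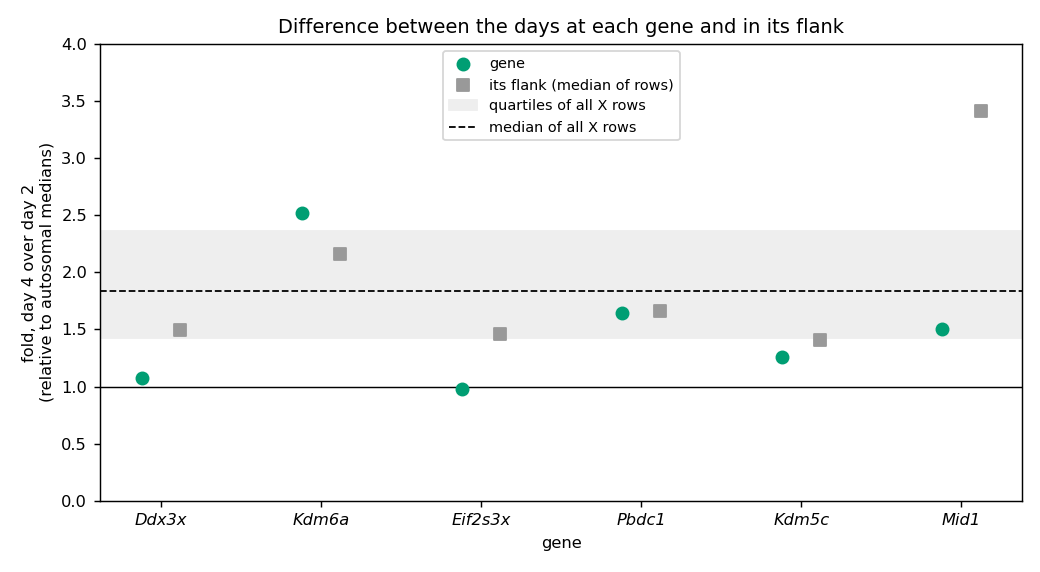
Fold of day 4 over day 2, each library divided by its autosomal median, at each gene (green) and as the median of its flank rows (grey squares). The band holds the quartiles of all X rows, 1.42 to 2.36, around their median of 1.83 (dashed); Eif2s3x, Ddx3x and Kdm5c lie under the band. Kdm6a is above it at 2.52, while 4 of its 5 rows, at 2.07 to 2.24, would lie inside.

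Over the upper part of the X, rows with a higher level on day 2 had a smaller fold. X rows in the highest quartile group of day 2 levels, from 17.65 up, had a median fold of 1.36 (quartiles 1.2 and 1.58), and those in the lowest group, up to 5.37, had 2.21 (1.58 and 2.80). The second group had 2.26, so no such order was seen between the lower groups. Eif2s3x and Kdm5c were in the highest group and Kdm6a in the lowest. Ddx3x, Pbdc1 and Mid1 were in the third, with a median of 1.82 and quartiles of 1.54 and 2.14. Ddx3x at 1.08, Mid1 at 1.5 and Eif2s3x at 0.977 were under the lower quartile of their own group. The day 2 value both sets the group and enters the fold, so part of this relation is built in.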

How the data were processed

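Xist RAP was sequenced from female mouse cells at day 2 and day 4 of differentiation, 1 library each. The submitters' processing notes name the mm9 build, bedtools, Picard, SAMtools 1.2, Bowtie2 2.2.9 and Trim Galore 0.4.1. Their settings, and any scaling of the libraries, are unknown here. The authors deposited an enrichment ratio for each 25 kb row, read as the centre of a window of 100 kb, and a flag; rows with a flag of 1 hold a ratio of 0 and were treated as having no value.

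Gene spans in mm9 came with the definition of the list. The level was the median of rows that overlap a span, and the flank the rows 0.2 to 1 Mb away. The same ratio was computed at the 3955 X rows with at least 10 flank rows with a value. Days were compared after division by the autosomal median, with no pseudocount. The members, lists, the 1.5-fold threshold and the 0.75 threshold were chosen with earlier results of these data known. All members are named. Scripts used Python 3.11.15, numpy 2.4.6 and pandas 2.3.3. The ratio script was tested on simulated data. Alternatives covered the rows taken for a gene, the flank, flagged rows and scaling. With 1 library per day no test was run.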

Additional observations from a re-analysis of the deposited data

Results flagged for a closer look

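For 2 genes the ratio of gene to flank had opposite signs on the 2 days; with 1 library per day the difference was not tested. The log2 ratio of Mid1 was 1.06 on day 2 and -0.15 on day 4, its only flank with values was on the left, and with that flank taken at 0.1 to 0.5 Mb it was 0.40 and -0.23. That of Kdm5c was 0.20 on day 2 and -0.0067 on day 4, a difference of -0.20. The log2 fold of day 4 over day 2 had a standard deviation of 0.22 over its flank rows. The difference was thus just within that spread.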

How the results depend on the processing

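Over 8 summaries of the list, 122 of 130 alternative values moved by less than the standard deviation over flank rows of the same measure, or for counts stayed within 1.5 times. That standard deviation is over single rows and is wide for a median of 6 genes, so the count does not show that the summaries are stable. Leaving single genes out aside, the day 2 median log2 ratio to the flank went from 0.084 to 0.35, where the main setting gave 0.33. The count of genes below their flank on day 2, 2, was 1 with the flank at 0.1 to 0.5 Mb and 1 with the right flank only, where Mid1 has none. With each gene left out in turn it was 1 to 2, being 1 without Kdm6a or without Pbdc1; on day 4 it was 3 to 4. Under the other settings it was 3 to 6 on day 4, being 6 with the flank at 0.1 to 0.5 Mb and 5 at 0.1 to 0.2 Mb, a setting added after seeing the data. The median percentile among X rows on day 4, 50.5, was 70.4 with flagged rows counted as 0, which adds rows at 0 to the X, and 37.1 without rows within 100 kb of a flagged row, where the cause was not tested. The median log2 difference between the days, 0.46, was 0.070 with no scaling and -0.54 with scaling to the X median. That last scaling makes the X medians of both days equal by construction. Under it Pbdc1 turned to -0.28 and Mid1 to -0.41. Kdm6a was below its flank under all 13 alternatives on both days, with log2 ratios from -1.96 to -0.63 on day 2. Ddx3x and Eif2s3x on day 4 kept their sign in 10 and 11 of 13, Pbdc1 on day 2 in 10, and Kdm5c in 12 on day 2 and 9 on day 4. No paired analysis was possible because there is a single library at either time. Without read counts, small differences between low rows such as those of Kdm6a cannot be weighed against counting error.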
